A study of Homo sapiens and Pan troglodytes with 11 samples.

Results

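SOCS2, BTG1 and PLXNC1 are 3 of the 24 genes probed in a CRISPR interference screen of human accelerated regions, carried out in 2-week-old excitatory neurons. They are the genes of the panel that lie on the long arm of chromosome 12, and their columns were read in the 4 libraries of 11 whose tables hold them. Human accelerated regions are conserved stretches of DNA in which the human lineage changed unusually fast. Neurons were derived from induced pluripotent stem cells of 1 human line, WTC11, and 1 chimpanzee line, C3649. Human 4 and human 5 are WTC11 libraries, chimpanzee 3 and chimpanzee 4 are C3649 libraries, and all 4 come from screen replicate 2. Every library carried the CRISPR interference system and 28 guide barcodes, so that no untreated neurons serve as a control. The labels do not say whether libraries of 1 line came from separate cultures, so the p-values measure only the spread between these libraries, which may be technical. As each species is 1 line, a difference between species and a difference between these lines cannot be told apart.

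The proteins of the 3 genes act in unrelated processes. SOCS2 is an SH2-domain adaptor of a ubiquitin ligase that restrains signalling from growth hormone and other cytokine receptors through JAK kinases and STAT factors, and in neural cells it has been tied to differentiation and neurite growth. BTG1 belongs to the BTG and TOB family, whose members slow cell proliferation and recruit the CCR4-NOT deadenylase to messenger RNAs. PLXNC1 is a plexin, the cell-surface receptor of semaphorin 7A, in a family that guides axons and dendrites. Of the genes listed as partners of these proteins, none was probed: 0 of 9 in cytokine signalling, 0 of 7 in the BTG and TOB family and 0 of 8 among other plexins, semaphorins and their co-receptors.

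On GRCh38 all 3 genes are protein-coding and lie within 2167 kb of chromosome 12. BTG1 (ENSG00000133639.4) is on the minus strand at chr12:92140278-92145897. SOCS2 (ENSG00000120833.13) is on the plus strand at chr12:93569814-93583487, and PLXNC1 (ENSG00000136040.8) follows on the plus strand at chr12:94148723-94307675. Between BTG1 and SOCS2 lie 1424 kb and 6 protein-coding genes, and between SOCS2 and PLXNC1 lie 565 kb and 1 protein-coding gene, CRADD. Each of the 3 overlaps other annotated transcripts: SOCS2-AS1 on the opposite strand of SOCS2, LINC01619 and AC025164.1 at BTG1, and CEP83 and 3 antisense transcripts at PLXNC1. Where on each gene the probes bind was not analysed here, so which of these transcripts the probes could also meet was not tested.

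The human promoters of BTG1 and PLXNC1 are shown as a description of sequence, as guide RNAs of the screen act on regulatory DNA. Sequences run from 250 bases before to 50 bases after the start of transcription in RefSeq, on GRCh38.p14, and capitals mark the motifs that were found. The BTG1 window is chr12:92145797-92146096 on the minus strand, and the window of the first PLXNC1 start is chr12:94148327-94148626 on the plus strand.
BTG1 promoter: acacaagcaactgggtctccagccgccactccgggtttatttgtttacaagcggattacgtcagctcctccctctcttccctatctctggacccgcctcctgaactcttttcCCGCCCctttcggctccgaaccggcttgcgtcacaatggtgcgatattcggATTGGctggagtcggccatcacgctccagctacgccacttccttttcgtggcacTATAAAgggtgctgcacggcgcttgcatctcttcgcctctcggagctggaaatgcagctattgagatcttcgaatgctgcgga
PLXNC1 promoter: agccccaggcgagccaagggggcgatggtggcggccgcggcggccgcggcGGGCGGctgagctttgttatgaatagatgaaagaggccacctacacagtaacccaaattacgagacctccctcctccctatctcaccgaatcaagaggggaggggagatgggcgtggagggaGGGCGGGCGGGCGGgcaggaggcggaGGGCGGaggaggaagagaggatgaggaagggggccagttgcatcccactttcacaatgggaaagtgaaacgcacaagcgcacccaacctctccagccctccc
The BTG1 window holds a TATA box (TATAAA) at -33 to -28 from the start, a CCAAT box at -87 to -83 and a GC box (GGGCGG) at -138 to -133, both of these on the opposite strand and so read here as ATTGG and CCGCCC. The PLXNC1 window holds 5 GC boxes between -200 and -47, of which 3 overlap each other, and no TATA or CCAAT box. A TATA box is found in 11.5% of the 35116 RefSeq promoter windows of the same length, a CCAAT box in 34.6% and a GC box in 45.0%, on either strand. The STAT motif TTCNNNGAA (7.66% of windows) and the E-box CACGTG (7.26%) are in neither sequence. BTG1 has 22 CG dinucleotides and PLXNC1 20, where the median window has 14. A second PLXNC1 start, in chr12:94262369-94262668, has 1 GC box and 9 CG dinucleotides. These matches describe the human sequence and do not locate bound factors. No chimpanzee promoter was compared and no guide was placed on these windows. A link of the motifs to species ratios or guide effects was therefore not tested.

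Gene transcripts were counted by HyPR-seq, in which probes bound to their target RNA are joined to a readout oligonucleotide, amplified in droplets with barcoded beads and counted as unique molecular identifiers (UMIs). The 4 tables held 18699 cells and 21 genes. GAPDH, a glycolytic enzyme, took 45.1% to 52.6% of gene UMIs in the cells used, so a gene's level is given as its share of gene UMIs outside GAPDH. Cells with GAPDH above 80% were left out, which removed 1712 of the 3825 cells of human 4 (44.8%, 95% Clopper-Pearson interval 43.2% to 46.4%) and 9, 2 and 7 cells of human 5, chimpanzee 3 and chimpanzee 4. The 16969 cells left numbered 2113, 4612, 5823 and 4421, with 226091, 456960, 793608 and 509317 UMIs outside GAPDH and medians of 101, 86, 111 and 98 a cell. The identity of the neurons could be checked on NRSN2 and SCRT2 alone of 7 listed neuronal markers, and those were detected in 91.4% to 97.2% and 59.4% to 67.5% of cells. None of the listed markers of astrocytes, progenitors, inhibitory neurons or pluripotent cells was probed.

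Libraries shared cell barcodes. Human 4, human 5 and chimpanzee 3 had 995 to 1060 barcodes in common by pairs and 880 in all 3, and chimpanzee 4 had 1436 in common with chimpanzee 5, a library of another gene panel. In human 4, 888 of the 1712 cells left out for GAPDH had a barcode found in another library. The protocol in the labels puts 2000 cells into 1 droplet reaction, and how many reactions make up a library is not given. Among the cells kept, SOCS2, BTG1 and PLXNC1 were each higher in those with a shared barcode in all 4 libraries. BTG1 stood at 3.82% in such cells and 2.59% in the others of human 4, and at 3.16% and 2.74% in human 5. In chimpanzee 3 it stood at 8.48% and 8.02%, and in chimpanzee 4 at 7.75% and 7.20%. How many other genes were higher in these cells was not counted, so this does not set the 3 apart. Results are given with and without cells of shared barcodes where both were computed and differ.

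BTG1 was 2.83-fold higher in chimpanzee neurons, while its chromosomal neighbours SOCS2 and PLXNC1 were 2.78-fold and 2.11-fold higher in human neurons. BTG1 made up 2.67% of UMIs outside GAPDH in human 4, 2.81% in human 5, 8.09% in chimpanzee 3 and 7.43% in chimpanzee 4. SOCS2 made up 1.41% and 1.48% in the human libraries and 0.494% and 0.551% in the chimpanzee libraries. PLXNC1 made up 2.81% and 2.93% in the human libraries and 1.37% and 1.36% in the chimpanzee libraries. For each of the 3 genes the libraries of a species lay close together and did not overlap those of the other species, as held for 100% of the 20 genes outside GAPDH. The means were 2.74% ± 0.100 and 7.76% ± 0.464 for BTG1, 1.45% ± 0.0469 and 0.522% ± 0.0397 for SOCS2, and 2.87% ± 0.0877 and 1.36% ± 0.00649 for PLXNC1, human then chimpanzee (SD, n = 2 libraries each).

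**Figure D1:**
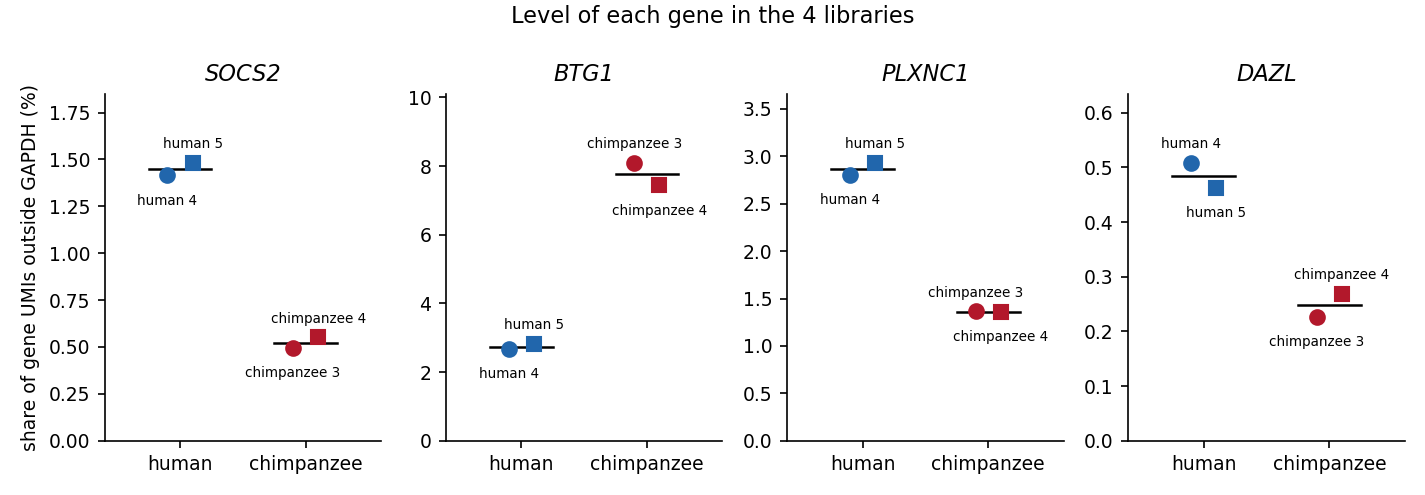
Level of SOCS2, BTG1, PLXNC1 and the germ cell gene DAZL as the percentage of gene UMIs outside GAPDH, on separate axes from 0. Each point is 1 library and each bar the mean of 2; BTG1 sits near 2.7% in human and 7.8% in chimpanzee libraries, and the other 3 genes sit higher in human libraries.

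The log2 ratio of human over chimpanzee was -1.50 ± 0.061 (SE) for BTG1 (adjusted p = 0.000198), 1.47 ± 0.073 for SOCS2 (adjusted p = 0.000252) and 1.08 ± 0.037 for PLXNC1 (adjusted p = 0.000173), by edgeR's quasi-likelihood test. All 3 were called, on a panel where 17 of 20 genes were (85%): 12 were higher in human neurons (60%) and 5 lower (25%). A call alone therefore does not set the 3 apart. By size, BTG1 ranked 2nd, SOCS2 3rd and PLXNC1 7th of the 20 genes, whose median absolute log2 ratio was 0.88. Pairs of 1 human and 1 chimpanzee library gave -1.60 to -1.40 for BTG1, 1.36 to 1.58 for SOCS2 and 1.04 to 1.11 for PLXNC1.

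**Figure D2:**
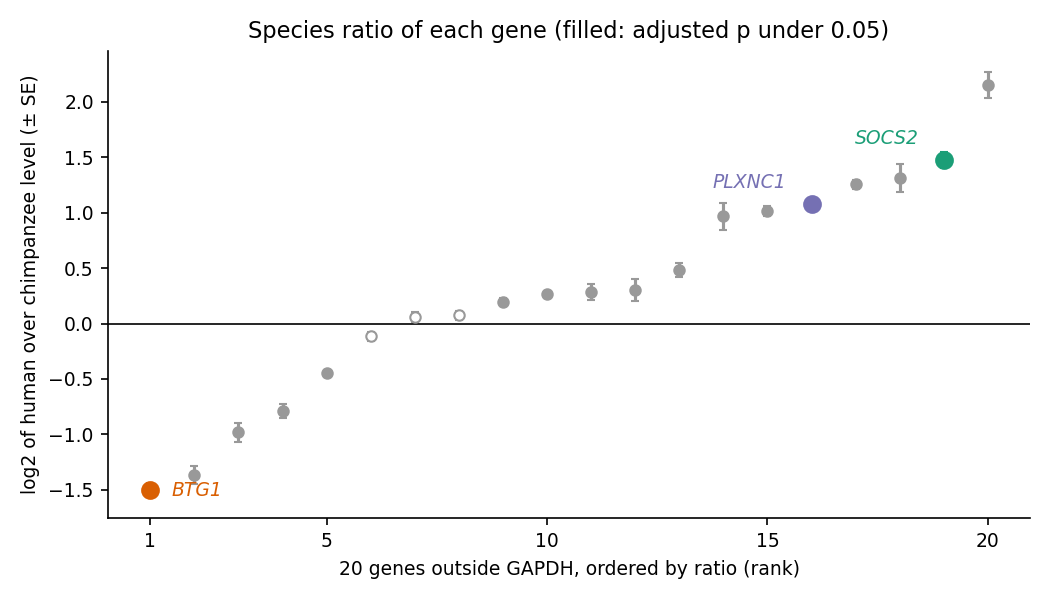
Log2 ratio of human over chimpanzee level (vertical axis, ± SE from edgeR) for the 20 genes outside GAPDH in order of the ratio (horizontal axis); filled points passed an adjusted p of 0.05. BTG1 is the lowest point at -1.50, and SOCS2 (1.47) and PLXNC1 (1.08) lie among the 5 highest.

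A share depends on the other genes in the total, and scalings moved all ratios together. With TMM factors the median of the 20 genes shifted by -0.35 on the log2 scale, and BTG1, SOCS2 and PLXNC1 stood at -1.85, 1.12 and 0.72. That scaling split the called genes into 7 higher and 8 lower in human neurons. With GAPDH UMIs as the library size the median shifted by 0.26 and the 3 genes stood at -1.23, 1.73 and 1.34. The distance of a gene from the median gene is almost fixed under a change of scaling, so it does not check the scaling. It can move when cells or libraries are left out. Over the 16 alternatives this distance lay between -1.88 and -1.64 for BTG1, 1.15 and 1.28 for SOCS2 and 0.75 and 0.88 for PLXNC1. Ratios of 2 genes within a library do not use a total. SOCS2 per BTG1 was 0.530 and 0.526 in human and 0.0611 and 0.0741 in chimpanzee libraries, 7.85-fold higher in human (7.11 to 8.67 over library pairs). PLXNC1 per BTG1 was 1.05 and 1.04 against 0.169 and 0.183, 5.96-fold higher. SOCS2 per PLXNC1 differed least, at 0.504 and 0.505 against 0.362 and 0.406, 1.32-fold higher in human (1.24 to 1.40). The exact permutation p of each of these 3 ratios was 0.333, two-sided, the smallest that 2 against 2 libraries allow.

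DAZL, a gene of germ cells, was taken as a measure of stray probe signal. It stood at 0.508% and 0.462% in human and 0.227% and 0.269% in chimpanzee libraries, and passed the species test as well (log2 ratio 0.97 ± 0.12, adjusted p = 0.00265). The number of probes a gene is not given in the sources used here, so levels are compared between libraries and not between genes. How well each human probe fits the chimpanzee transcript was not analysed here, so sequence differences under the probes and different transcript levels cannot be told apart in any of these ratios.

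The species difference held across the range of GAPDH. In cells with GAPDH at 40% to 60%, a range filled by both species, the log2 ratios were -1.47 for BTG1, 1.55 for SOCS2 and 1.13 for PLXNC1. BTG1 was higher in cells with more GAPDH in every library. In cells with GAPDH under 40% and at 60% to 80% it stood at 2.43% and 3.09% in human 4, 2.62% and 3.17% in human 5, 6.70% and 8.58% in chimpanzee 3, and 6.31% and 7.87% in chimpanzee 4. The same bins had 2.65% and 3.00% PLXNC1 in human 4, 2.79% and 2.67% in human 5, 1.40% and 1.34% in chimpanzee 3 and 1.37% and 1.28% in chimpanzee 4. SOCS2 was at 1.29% and 1.46%, 1.41% and 1.36%, 0.467% and 0.480%, and 0.49995% and 0.653%, so neither gene had 1 direction in all 4 libraries. Just inside the 80% limit, at 75% to 80% GAPDH, human 4 had 3.38% BTG1, 1.54% SOCS2 and 3.33% PLXNC1 in 172 cells. Just outside, at 80% to 85%, it had 3.21%, 1.52% and 3.21% in 478 cells. Without cells of shared barcodes the log2 ratios were -1.52, 1.47 and 1.07.

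Single cells differed in how many UMIs of each gene they held, and BTG1 was nearly universal in chimpanzee neurons. To compare cells at 1 depth, each was thinned to 30 UMIs outside GAPDH, which left out 311 of the cells of human 4, 119 of human 5, 14 of chimpanzee 3 and 45 of chimpanzee 4 as too shallow. BTG1 was then seen in 52.5% and 55.6% of human cells and in 88.7% and 86.1% of chimpanzee cells. Cells with 3 or more BTG1 UMIs among 30 made up 6.10% and 6.30% in human and 42.4% and 38.6% in chimpanzee libraries. PLXNC1 was seen in 55.0% and 56.8% of human and 32.9% and 31.9% of chimpanzee cells. SOCS2 was seen in 33.1% and 36.3% of human and 13.1% and 14.6% of chimpanzee cells. DAZL was seen in 15.04%, 12.8%, 6.40% and 7.86% of the same cells. Counting error alone gives 95% Clopper-Pearson intervals of 30.9% to 35.3% for SOCS2 in human 4 and 12.2% to 14.0% in chimpanzee 3. Without thinning, SOCS2 had a UMI in 65.8%, 69.6%, 42.1% and 40.01% of cells, BTG1 in 81.0%, 86.2%, 99.5% and 98.4%, and PLXNC1 in 80.5%, 86.9%, 76.1% and 70.4%, in the order human 4, human 5, chimpanzee 3, chimpanzee 4. In percentage points, PLXNC1 and BTG1 thus had a smaller gap between species without thinning, and SOCS2 did not. The part of unequal depth in this was not tested.

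**Figure D3:**
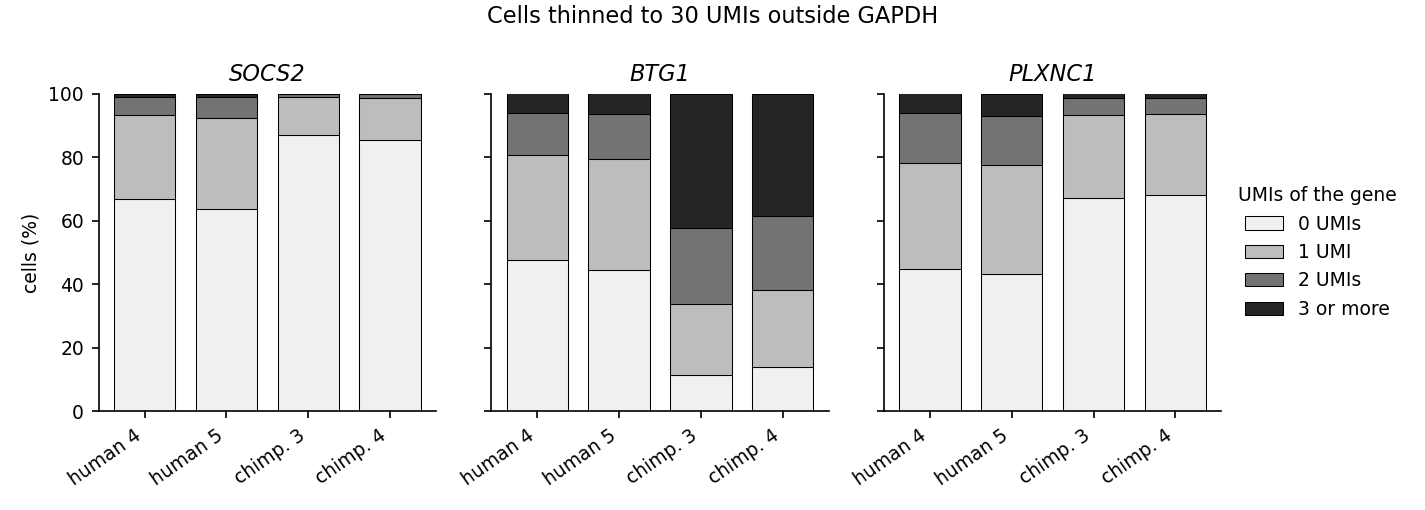
Percentage of cells (vertical axis) with 0, 1, 2 or at least 3 UMIs of SOCS2, BTG1 or PLXNC1 after each cell was thinned to 30 UMIs outside GAPDH, in the 4 libraries (horizontal axis). Cells with at least 3 BTG1 UMIs fill 42.4% and 38.6% of the chimpanzee bars and 6.10% and 6.30% of the human bars, and cells without SOCS2 fill most of every bar.

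Relative to its squared mean, SOCS2 had a wider spread between cells beyond counting noise in both chimpanzee libraries than in either human library. With 2 libraries a species this difference cannot be tested (the smallest exact permutation p is 0.333). SOCS2 shared the wider spread with AKAP6, BHLHE40, ONECUT2, SCRT2 and SRXN1, in all 6 of the 20 genes (30%). Another 4 genes (20%) were narrower in both chimpanzee libraries. Spread is given as the variance of a gene's share over cells beyond Poisson counting, relative to its squared mean. For SOCS2 it was 0.159 in human 4 and 0.132 in human 5, and 0.481 in chimpanzee 3 and 0.598 in chimpanzee 4. As a standard deviation of the share, this is 39.9% and 36.4% of the mean in human and 69.3% and 77.3% in chimpanzee libraries. SOCS2 ranked 12th and 9th of the 20 genes by this spread in the human libraries and 4th and 5th in the chimpanzee libraries. BTG1 had 0.205, 0.134, 0.109 and 0.167, and PLXNC1 had 0.187, 0.180, 0.153 and 0.189, both near the median gene (0.163, 0.126, 0.131 and 0.154) and with overlapping species. With cells thinned to 30 UMIs the values of SOCS2 were 0.156, 0.0300, 0.557 and 0.472, and without cells of shared barcodes 0.169, 0.163, 0.560 and 0.781. SOCS2 also had fewer UMIs a cell in chimpanzee (0.674 and 0.634) than in human libraries (1.51 and 1.47), and the share of this level in its wider spread was not tested. In cells thinned to 30 UMIs, the variance of SOCS2 counts over their mean, 1 for Poisson counting, was 1.065 and 1.014 in human libraries. In chimpanzee libraries it was 1.080 and 1.077, so the gap between species was small by this measure. The 1% of cells with most SOCS2 held 6.13% and 5.60% of its UMIs in human and 9.71% and 10.4% in chimpanzee libraries.

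The 3 neighbours hardly varied together from cell to cell. Correlations are Pearson's r of residuals after a cell's depth is taken out, given as descriptions over 2113 to 5823 cells of 1 library, whose shares compete for the same total. SOCS2 and PLXNC1 had r of 0.0532, 0.0235, -0.00520 and 0.00899 in human 4, human 5, chimpanzee 3 and chimpanzee 4. BTG1 and PLXNC1 had -0.0304, -0.0577, 0.0226 and 0.0141. BTG1 and SOCS2 had -0.00669, 0.0147, -0.0686 and -0.0825. The median of the 190 gene pairs was -0.0245, -0.0303, -0.0203 and -0.0142, and their range ran from -0.454 to 0.558.

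PLXNC1 varied with another gene in human cells far more than in chimpanzee cells. ONECUT2, a cut-homeodomain transcription factor, had r of 0.277 and 0.267 with PLXNC1 in human 4 and human 5, the highest of all 190 pairs in both, against -0.00141 and 0.0244 in chimpanzee 3 and chimpanzee 4. At 60 UMIs a cell, human 4 cells with at most 1 ONECUT2 UMI had 2.05% PLXNC1 among their remaining UMIs, and those with 4 or more had 4.03%, a ratio of 1.97. Human 5 cells with at most 2 had 2.39% and those with 5 or more had 4.07%, a ratio of 1.70. In chimpanzee 3 the cells with 0 and with 2 or more ONECUT2 UMIs had 1.42% and 1.47%, and in chimpanzee 4 they had 1.33% and 1.58%, ratios of 1.04 and 1.19. ONECUT2 itself was scarcer in chimpanzee libraries, at 1.92% and 2.16% against 4.59% and 5.57%. PLXNC1 was lower there too, at 1.37% and 1.36% against 2.81% and 2.93%. The spread of ONECUT2 between cells, relative to its squared mean, was wider there, at 1.91 and 2.71 against 0.689 and 0.519. The part of these differences in the weaker relation was not tested. The split was chosen after the correlations were seen, and with 2 libraries a species the difference has no test. Thinned to 30 UMIs, the r of PLXNC1 and ONECUT2 was 0.103 and 0.107 in human and -0.0101 and 0.0378 in chimpanzee libraries, and without cells of shared barcodes it was 0.303, 0.308, -0.000952 and 0.0131.

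**Figure D4:**
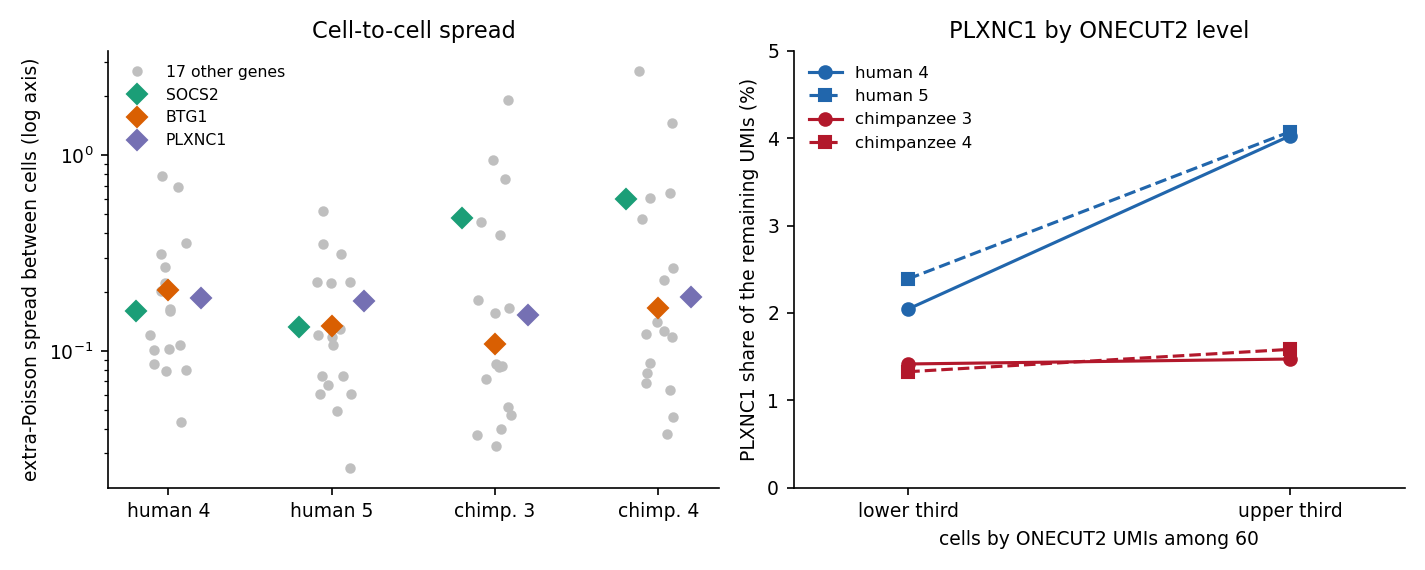
Left: spread of each gene between cells beyond Poisson counting, relative to its squared mean (log axis), in the 4 libraries. SOCS2, BTG1 and PLXNC1 are diamonds and the 17 other genes are in grey. SOCS2 is at 0.481 and 0.598 in chimpanzee and at 0.159 and 0.132 in human libraries. Right: PLXNC1 share of the remaining UMIs (%) in cells of low and high ONECUT2 count at 60 UMIs; the human libraries go from 2.05% to 4.03% and from 2.39% to 4.07%, and the chimpanzee libraries lie between 1.33% and 1.58%.

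BAZ1A, a subunit of ISWI chromatin remodellers, stood at the other end, with r of -0.310 and -0.317 to PLXNC1 in human and -0.0474 and -0.0509 in chimpanzee libraries. PLXNC1 in human cells of high BAZ1A count was 0.623 and 0.684 times that in cells of low count, against 0.957 and 1.05 in chimpanzee cells. Thinned to 30 UMIs, its r was -0.148, -0.145, -0.0636 and -0.0724, a smaller gap between the species. NPAS3, a neuronal transcription factor, was next, at -0.201 and -0.207 in human and -0.0724 and -0.0794 in chimpanzee libraries. AKAP6, an anchor of protein kinase A, was similar in all 4 with r of 0.0933, 0.104, 0.0659 and 0.0825. Thinned to 30 UMIs, the r of PLXNC1 and AKAP6 fell to -0.0189, 0.00817, 0.0374 and 0.0196. With GAPDH in the total, the median r of the 190 gene pairs rose to 0.0854, 0.0443, 0.0235 and 0.0288 in the 4 libraries. PLXNC1 then had r of 0.306 and 0.300 with ONECUT2 in human libraries, where the highest pair reached 0.509 and 0.424. Its r with BAZ1A was -0.0765 and -0.150 there. That with NPAS3 was 0.00986, -0.0830, 0.0365 and 0.0407, with the sign turned in 3 of 4 libraries. How much of these changes is the rise of all pairs was not tested.

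SOCS2 shared ONECUT2 as its closest partner, weakly: r was 0.129, 0.0310, 0.132 and 0.154, and NRSN2, a neuronal membrane protein, followed at 0.0963, -0.0130, 0.0669 and 0.0865. Its lowest were BAZ1A (-0.169, -0.0984, -0.0667 and -0.105) and TENM3, a teneurin adhesion protein (-0.0757, -0.0487, -0.0836 and -0.0998). With GAPDH in the total these became 0.0114, 0.0173, -0.0313 and -0.0757 for BAZ1A and 0.0890, 0.0465, -0.0410 and -0.0576 for TENM3. Both thus turned sign in the human libraries, where the median of all gene pairs had risen to 0.0854 and 0.0443. Thinned to 30 UMIs, the r of SOCS2 and NRSN2 was -0.0182, -0.0242, 0.0168 and 0.00748. SOCS2 was 1.36, 1.16, 1.23 and 1.21 times as high in cells of high as of low ONECUT2 count. With the total outside GAPDH, BTG1 had no positive partner as close as ONECUT2 was to SOCS2. Its highest mean r over the 4 libraries was 0.012, with BAZ1A (-0.0152, -0.0163, 0.0296 and 0.04996), and its lowest were with AKAP6 (-0.139, -0.130, -0.139 and -0.164) and ONECUT2 (-0.0735, -0.0696, -0.129 and -0.148). With AKAP6 left out of the total, BTG1 was 0.908, 0.950, 1.03 and 0.991 times as high in cells of high as of low AKAP6 count. AKAP6 is the most counted gene outside GAPDH in human libraries (18.1% in both). With GAPDH in the total the r of BTG1 and AKAP6 was 0.0345, -0.0191, -0.00736 and -0.0316. That of BTG1 and BAZ1A was then 0.141, 0.108, 0.0583 and 0.0808, in a setting where the median of all gene pairs had risen.

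The guide barcodes ask whether repressing a region changed the 3 genes. The guide behind each barcode, its target region and the control guides were not analysed here. Each barcode was set against the mean of the others of its species. A cell counted for a barcode with at least 5 UMIs and 70% of the cell's guide UMIs. This assigned 745 cells of human 4, 831 of human 5, 811 of chimpanzee 3 and 1003 of chimpanzee 4, with a median of 23 to 31 cells a barcode and library.

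No pair of barcode and member passed the adjusted threshold in either species. By edgeR, 0 of 75 member pairs were called in human neurons, where 7 of 500 pairs over all genes were (1.4%), and 8 of the 75 had an unadjusted p under 0.05 (8% over all genes). In chimpanzee neurons 0 of 72 were called, against 1 of 480 (0.208%), and 2 had an unadjusted p under 0.05 (7.08% over all genes). Of the differences between species, 0 of 69 were called, against 6 of 460 (1.3%), with 5 unadjusted (7.83% over all genes). DESeq2 called 0 member pairs in all 3 contrasts, with 11, 2 and 6 at an unadjusted p under 0.05. Without cells of shared barcodes edgeR called 0 of them as well, with 8, 3 and 5 unadjusted. The median SE of a human effect was 0.21 on the log2 scale for SOCS2, 0.20 for BTG1 and 0.18 for PLXNC1, and of a chimpanzee effect 0.30, 0.18 and 0.23.

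The human pair nearest to a call was SOCS2 with SplintRbar28. SOCS2 made up 2.00% of UMIs in 34 such cells of human 4, against 1.37% in cells of other barcodes, and 2.81% in 9 cells of human 5, against 1.44%. The fitted log2 effect was 0.69 ± 0.21 (adjusted p = 0.0700), with adjusted p of 0.00373 to 0.911 in 11 alternatives. It passed with the looser assignment of 2 UMIs and 50% (adjusted p = 0.00373), where the difference from chimpanzee passed too (0.90 ± 0.21, adjusted p = 0.00899, against 0.85 ± 0.30 and 0.280 with the assignment used), and by the newer edgeR default (adjusted p = 0.0245). In chimpanzee cells of this barcode SOCS2 was at 0.575% against 0.490% (41 cells) and 0.413% against 0.576% (129 cells).

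PLXNC1 with SplintRbar26 came next. It made up 3.88% against 2.71% in 37 cells of human 4 and 3.496% against 2.45% in 28 cells of human 5, a log2 effect of 0.54 ± 0.17 (adjusted p = 0.0971). Both libraries gave nearly the same ratio, and 1 fit per species (adjusted p = 0.0161), the newer edgeR default (adjusted p = 0.0147) and the fits without chimpanzee 3 or chimpanzee 4 (adjusted p = 0.0176 for both) called it, 4 of 12 alternatives. DESeq2 (0.46, adjusted p = 0.220) and TMM factors (0.45, adjusted p = 0.248) did not, and without human 4 or human 5 the adjusted p was 0.997 and 0.992, the largest of the 12. In chimpanzee cells it was 1.24% against 1.22% (69 cells) and 1.14% against 1.31% (119 cells), and the difference between species was 0.56 ± 0.25 (adjusted p = 0.473). BTG1 had its smallest human p with SplintRbar1, at 4.47% against 2.79% in 13 cells and 3.63% against 2.86% in 24 cells (0.51 ± 0.21, adjusted p = 0.336).

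Chimpanzee effects of the members were smaller or rested on few UMIs. SOCS2 with Brainbar3 had a log2 effect of 1.21 ± 0.43 (adjusted p = 0.297), from 16 SOCS2 UMIs in 9 cells of chimpanzee 3 (1.247% against 0.484%) and 2 in 6 cells of chimpanzee 4 (0.548% against 0.553%). Without chimpanzee 3 it was -0.011. The difference from human was -1.68 ± 0.54 (adjusted p = 0.163). PLXNC1 with Brainbar8 had -0.48 ± 0.29 (adjusted p = 0.892) and BTG1 with Brainbar7 had 0.26 ± 0.17 (adjusted p = 0.894). BTG1 had effects between -0.26 and 0.29 over all 24 barcodes there.

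**Figure D5:**
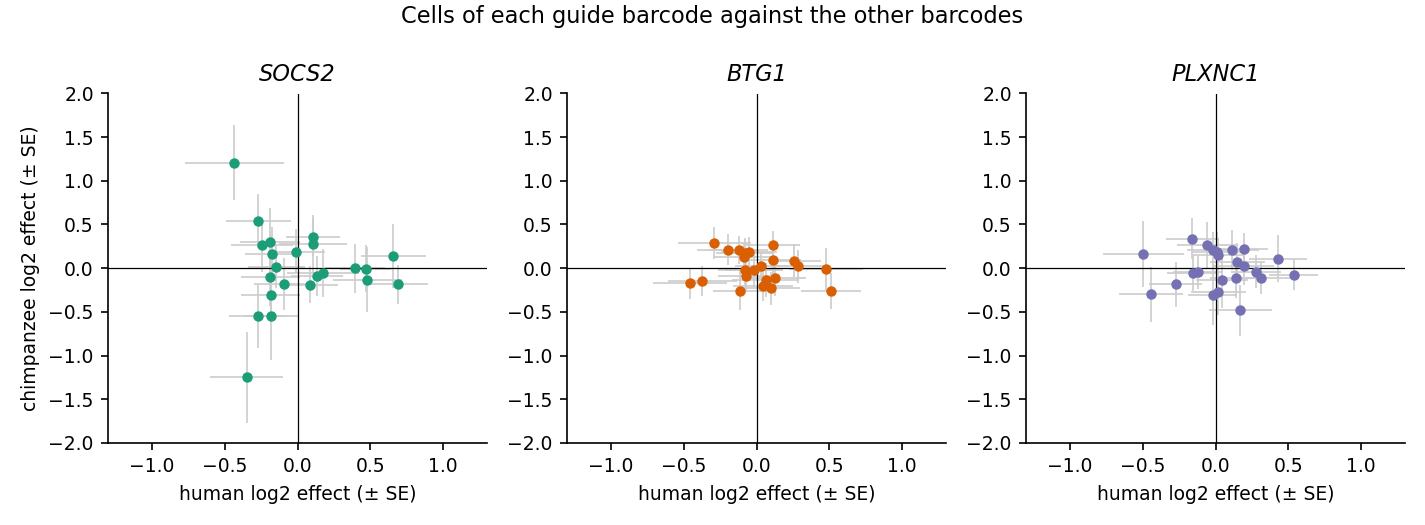
Log2 effect of each guide barcode on SOCS2, BTG1 and PLXNC1 in human cells (horizontal axis) and chimpanzee cells (vertical axis), each against the mean of the other barcodes, with SE bars; 23 barcodes testable in both species are shown. BTG1 effects stay within -0.26 and 0.29 in chimpanzee cells, and the SOCS2 point near 1.21 is Brainbar3.

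Whether barcodes deviated alike in the 2 libraries of a species was read from their levels. Over 25 barcodes the log2 deviations of PLXNC1 in human 4 and human 5 had r = 0.54 and the same sign for 17, those of SOCS2 0.31 and 15, and those of BTG1 0.12 and 15. Over 24 barcodes in chimpanzee 3 and chimpanzee 4 they had -0.18 and 12 for PLXNC1, 0.15 and 10 for SOCS2 and -0.19 and 12 for BTG1. These are descriptions over barcodes that share a library and differ in cell number. Cells with a cell barcode found in another library are included, and values without them were not computed. Human 4 and human 5 had 1060 cell barcodes in common, chimpanzee 3 and chimpanzee 4 had 9. The other genes of the panel were not set beside the 3 members. Cells with 1 assigned barcode were also set against all other cells of their library. By edgeR 0 of 20 genes were called (0%; 6 at an unadjusted p under 0.05, 30%), among them 0 of the 3 members. PLXNC1 stood at 2.77% in assigned and 2.83% in other cells of human 4, 2.48% and 3.03% in human 5, 1.22% and 1.39% in chimpanzee 3 and 1.29% and 1.37% in chimpanzee 4. It was lower in assigned cells in 4 of 4 libraries (-0.15 ± 0.051, adjusted p = 0.153), and passed with the looser assignment (-0.16, adjusted p = 0.0342). SOCS2 and BTG1 had log2 differences of -0.0072, -0.027, -0.0010 and 0.0069 and of 0.13, 0.044, -0.11 and -0.091 in the 4 libraries.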

How the data were processed

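HyPR-seq gene and guide-barcode UMIs were read from the deposited tables of 2 human and 2 chimpanzee libraries. The authors deposited whole-number UMI counts, with cells as rows and genes and guide barcodes as columns, per the file headers. Per the submitters' processing notes, the tools were fastp, UMI-tools, Bowtie and SAMtools, with the hg38 build. Versions, the counting of probes, its strand and the choice of cell barcodes are not given there. Libraries were grouped by the cell line in the labels. Libraries of 1 species differed by more than counting error (chi-square 35.0 and 132 per degree of freedom, 19 degrees), so each was counted once.

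The genes, gene lists, tests and named genes were chosen with earlier results of these data known. Named were the 3 members, for each the 2 genes with the highest and 2 with the lowest mean correlation, and for each member and species the barcode with the smallest p. The gene with the second highest mean correlation to BTG1 is not reported here, and neighbours by level were left out because levels are not compared between genes. Cells with GAPDH above 80% of gene UMIs were left out. No doublet caller was run. Counts were summed per library, or per library and barcode, and tested with edgeR 4.0.16 in R 4.3.3 (quasi-likelihood, common dispersion, earlier method, library size the total outside GAPDH without TMM factors). Genes needed 10 UMIs, barcodes 5 cells in both libraries of a species. Benjamini-Hochberg adjustment ran over all 20 genes, or all pairs of barcode and gene, with a threshold of 0.05. The spread between libraries is shared over genes, so SEs do not rest on a gene's own spread alone. Alternatives included DESeq2 1.42.0, TMM factors and leaving out each library. The scripts were tested on simulated data. Intervals are Clopper-Pearson at 95% and cover counting error only. Positions come from GENCODE on GRCh38, whose gene symbols matched all 3 members, and promoters from RefSeq, which held windows for BTG1 and PLXNC1.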

Additional observations from a re-analysis of the deposited data

How the results depend on the processing

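The species ratios of SOCS2, BTG1 and PLXNC1 kept their direction and stayed past an adjusted p of 0.05 in all 16 alternatives. They ranged from 1.12 (TMM factors) to 1.73 (GAPDH UMIs as the library size) for SOCS2, from -1.85 to -1.23 for BTG1 and from 0.72 to 1.34 for PLXNC1, and the highest adjusted p was 0.00554. The number of genes called ran from 14 to 18. Without 1 library in turn, the ratios lay between 1.40 and 1.55 for SOCS2, -1.56 and -1.44 for BTG1 and 1.04 and 1.11 for PLXNC1. Of the 16 alternatives, the fit without the filter on low genes repeats the main fit, as all 20 genes pass that filter.

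Counts of called guide pairs were unstable, and 1 library left in an arm was assumed to vary like the others. In human neurons 1 fit per species gave 13, and leaving out 1 library gave 1 (without human 4) to 11 (without chimpanzee 3 or chimpanzee 4). In chimpanzee neurons the looser assignment, the newer edgeR default and a minimum of 10 cells gave 0 (27, 36 and 19 at an unadjusted p under 0.05), DESeq2 gave 4 and cells without shared barcodes gave 6. Leaving out 1 library gave 1 to 16 there, 14 without chimpanzee 3 and 16 without chimpanzee 4. Among those without chimpanzee 4 were BTG1 with SplintRbar25 (-1.25 ± 0.33) and SplintRbar15 (0.57 ± 0.16). SplintRbar25 rested on 27 BTG1 UMIs in 5 cells of chimpanzee 3 (3.03% against 7.59%). In 4 cells of chimpanzee 4 it stood at 6.63% against 7.07%. SplintRbar15 went opposite ways, at 10.2% against 7.39% in chimpanzee 3 and 4.48% against 7.10% in chimpanzee 4. Interactions numbered 2 by the newer default and 3 with 10 cells, and 0 (without human 4, 17 unadjusted) to 18 (without chimpanzee 3) with 1 library left out, 2 without human 5 and 12 without chimpanzee 4. The newer default also called SOCS2 with Brainbar7 in human neurons (0.48 ± 0.13, adjusted p = 0.0414). The cause was not tested. The chimpanzee effect of Brainbar3 on SOCS2 changed sign without chimpanzee 3 (-0.011, against 1.42 without chimpanzee 4). Between assigned and other cells, the looser assignment and keeping all cells called 2 genes each, and leaving out 1 library left the count at 0. The difference of SOCS2 changed sign without shared barcodes (0.0047), and that of BTG1 without shared barcodes (0.035), without chimpanzee 3 (0.024) and without chimpanzee 4 (0.018, against -0.054 without human 4), none of them past the threshold.

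No paired analysis was possible because replicate numbers were given in accession order, the species share only the number 4, and all 4 libraries belong to 1 screen replicate. Cell number limits the guide comparisons, as a barcode had 5 to 143 cells in a library.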
